A study of Mus musculus with 18 samples.

Results

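Transcripts of 8 genes, grouped as DNA methylation enzymes and cofactors, were followed through cardiac differentiation of mouse embryonic stem cells. The genes were Dnmt1, Uhrf1, Dnmt3b, Dnmt3a, Dnmt3l, Tet1, Tet2 and Mbd3, chosen by gene symbol from the 18193 genes that had a probe set of their own. They had 20 probe sets among the 34945 that mapped to 1 gene. All 8 genes passed the filter on dim signals, a signal of at least 22.5 on at least 2 arrays, along with 13379 genes in all. Dnmt3l passed it only through 3 GFP-negative arrays of days 5 and 6.

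All samples came from the D3 mouse embryonic stem cell line, differentiated as hanging-drop embryoid bodies, which are floating aggregates of cells, in medium without leukemia inhibitory factor and with ascorbic acid. The stem cells had been kept on mitomycin-treated embryonic fibroblast feeders, which were removed before differentiation. The selected cardiomyocytes came from a transgenic clone in which the alpha myosin heavy chain promoter, active in heart muscle, drove neomycin resistance, and were selected with G418. The labels give them neither a day nor a batch. In the sorted cells an Nkx2.5 enhancer fragment, from an early heart transcription factor gene, drove green fluorescent protein (GFP) through the hsp68 minimal promoter, together with a hygromycin resistance vector. GFP-positive and GFP-negative cells were sorted on days 5, 6, 7 and 8, each in batch 1 and batch 2. This gave 9 groups of 2 Affymetrix arrays, 18 arrays in all, with no undifferentiated stem cells among them. The reporter follows 1 enhancer fragment, so the GFP-positive fraction is the set of cells in which that fragment was active, not cardiac cells alone.

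DNA methylation is the addition of a methyl group to cytosine, mostly where it precedes guanine, and it is associated with lasting gene silencing. Dnmt3a and Dnmt3b are the de novo methyltransferases that place new marks in the early embryo, and Dnmt3l is a partner without catalytic activity that stimulates them. Dnmt1 copies the marks to the new strand after DNA replication, and Uhrf1 binds hemimethylated sites and brings Dnmt1 to them. Tet1 and Tet2 oxidise methylcytosine, a step towards its removal, and Mbd3 is a subunit of the nucleosome remodelling and deacetylase complex (NuRD).

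The values were MAS5 signals on a linear scale. Medians of the arrays lay between 18.2 and 29.3, and the 2 arrays of a group correlated at 0.936 to 0.985 on the log2 scale across genes. The cardiomyocyte arrays correlated with the sorted arrays at 0.764 to 0.842. Whether both arrays of a group stem from separate cultures is not in the labels, so the p-values measure a spread that may be technical. The precision of each value is limited by the 2 arrays a group, and no detection calls were used here. The summed signal of 15 sarcomere genes was 94190 and 94168 on the cardiomyocyte arrays, against 34138 and 33275 in day 8 GFP-positive cells and 10068 and 5306 in day 8 GFP-negative cells. Day 8 GFP-positive cells also had a summed signal of 8651 and 9596 for 14 endothelial genes, against 2238 and 1287 in day 8 GFP-negative cells. For 12 endoderm genes it was 21510 and 19511 in day 8 GFP-positive cells, against 4852 and 2403 in day 8 GFP-negative cells. In such bulk samples, fewer cells of a type and less RNA per cell cannot be told apart.

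Uhrf1 and Dnmt1, the maintenance pair, both fell in GFP-positive cells and were both lower in cardiomyocytes. The sequence before one annotated start of each is shown because, of the 8 genes, only these held a match in the search below. Within 250 bases upstream of the starts listed by RefSeq, the words TTTCCCGC, TTTCGCGC, TTTGCCGC and TTTGGCGC, which spell the binding motif of the E2F factors that act on replication genes, were searched on both strands. Promoters of all 8 genes were listed, 15 in all, and 2 of the 8 genes, Dnmt1 and Uhrf1, held a match. Dnmt3b, which also fell in GFP-positive cells and was lower in cardiomyocytes, held no match. Capitals mark the match in the 2 windows of 30 bases below (GRCm38.p6, each 5′ to 3′ on the strand of the gene), on the minus strand at chr9:20952824-20952853 for Dnmt1 and on the plus strand at chr17:56304117-56304146 for Uhrf1.
Dnmt1: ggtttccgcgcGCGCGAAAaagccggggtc
Uhrf1: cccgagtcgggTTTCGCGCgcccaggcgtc
The Dnmt1 match is the reverse complement of TTTCGCGC and begins 219 bases before that start, and the Uhrf1 match is TTTCGCGC as written and begins 185 bases before its start. Neither overlapped another of the 4 words. RefSeq lists 3 starts for Dnmt1, of which 2 lie upstream of the window, and 2 for Uhrf1, of which 1 lies upstream of it. Of all 27025 genes with a listed promoter, 583 held a match (2.16%), and of 20 DNA replication genes with one, 6 did (30%), namely Mcm5, Mcm6, Mcm7, Cdc6, Pola1 and Rfc3. Hells and Cdca7, which form a remodelling complex needed for DNA methylation, also held one, among 16 other genes of the methylation machinery. A match of letters is not a measured binding site.

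Uhrf1 fell in GFP-positive cells with time and was far lower in the selected cardiomyocytes. Its signal was 135.8 and 125.4 in cardiomyocytes. In GFP-positive cells of batches 1 and 2 it was 1114.4 and 1139.3 on day 5, 1080.5 and 1184.8 on day 6, 631.9 and 898.2 on day 7, and 512.9 and 655.5 on day 8. In GFP-negative cells it was 950.2 and 963.4 on day 5, 1011.3 and 816.1 on day 6, 1142.3 and 1049.4 on day 7, and 686.7 and 845.2 on day 8. All 4 GFP-positive arrays of days 7 and 8 lay below all 4 of days 5 and 6, whereas the GFP-negative arrays of the 2 periods overlapped. In GFP-positive cells Uhrf1 fell by 0.77 ± 0.13 (log2 difference ± SE, adjusted p = 0.00568 by limma, 4 arrays against 4), with differences of -0.94 in batch 1 and -0.59 in batch 2. In GFP-negative cells the difference was -0.03 ± 0.13 (limma adjusted p = 0.915).

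**Figure D1:**
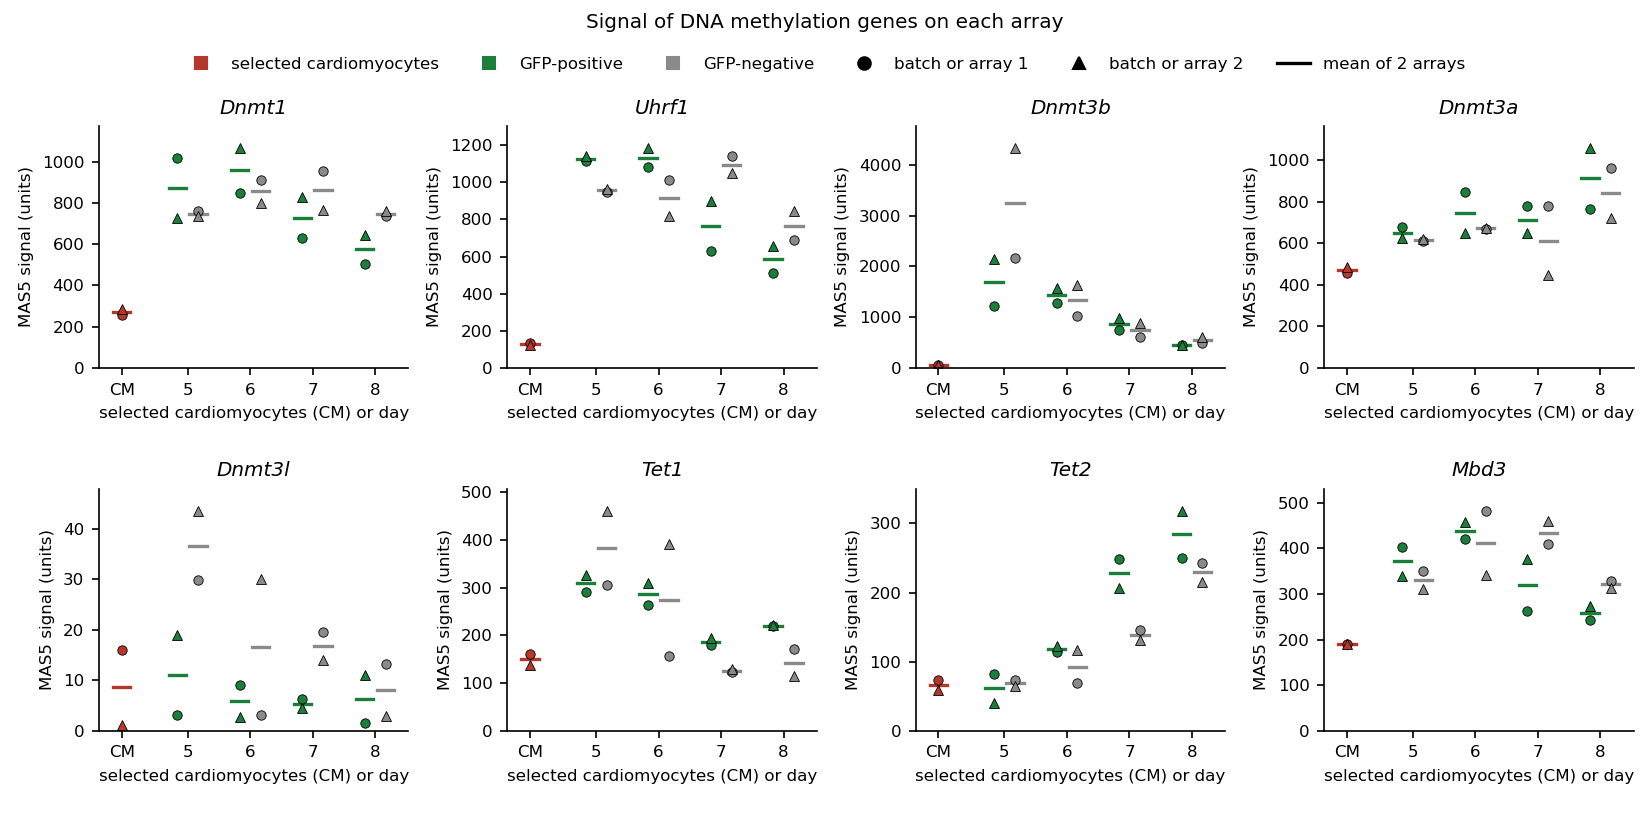
MAS5 signal (vertical axis, linear, from 0) of the 8 genes on each of the 18 arrays, with selected cardiomyocytes at the left of each panel and days 5 to 8 after them, GFP-positive beside GFP-negative; points are arrays and bars are means of 2 arrays. Uhrf1, Dnmt1 and Dnmt3b are lowest in cardiomyocytes, Tet2 climbs over the days in both fractions, and Dnmt3l stays near the background.

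The pairs of Uhrf1 had opposite orders of the fractions in the 2 periods on 1415810_at, the probe set that stood for the gene. Neither period had a difference that passed in the main limma fit. Signals in GFP-positive over GFP-negative cells of the same day and batch gave ratios of 1.07 to 1.45 on days 5 and 6, above 1 in 4 of 4 pairs. The log2 difference there was 0.27 ± 0.13 (limma adjusted p = 0.777). On days 7 and 8 the ratios were 0.553 to 0.856, below 1 in 4 of 4 pairs. The second probe set, 1415811_at, was not lower in every late pair. On day 8 of batch 1 it read 129.8 in GFP-positive and 126.2 in GFP-negative cells. On days 7 and 8 the difference of GFP-positive minus GFP-negative was -0.46 ± 0.13 (limma adjusted p = 0.0548), and with batch as a block the adjusted p was 0.0372. It also passed with an offset at the median of all values (adjusted p = 0.0495), with the filter at 4 times that median (adjusted p = 0.0481), and without the batch 1 array of day 8 GFP-negative cells (-0.54, adjusted p = 0.0374) or the batch 2 array of day 7 GFP-positive cells (-0.59, adjusted p = 0.0269). The change of this difference between the periods, the interaction, was -0.74 ± 0.19 and did not pass (limma adjusted p = 0.114), except without the batch 2 array of day 7 GFP-positive cells (-0.86, adjusted p = 0.0443). For 1415811_at the difference on days 7 and 8 was -0.38 ± 0.19 (limma adjusted p = 0.247) and the interaction -0.68 ± 0.26 (limma adjusted p = 0.335). Of the 8 genes, none passed in GFP-positive against GFP-negative cells over all days, on days 5 and 6 or on days 7 and 8, where 2.68%, 0.149% and 6.63% of all genes tested passed, and none passed the interaction, where 0.142% did. At an unadjusted p under 0.05 there were 1, 0, 4 and 3 of the 8 by the same limma fit, where 18.5%, 6.7%, 24.0% and 12.9% of all genes tested were.

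Dnmt1 had a similar but smaller course. Its signal was 254.1 and 285.8 in cardiomyocytes. In GFP-positive cells it was 1017.4 and 724.5 on day 5, 849 and 1066 on day 6, 627.8 and 828.2 on day 7, and 503.3 and 645.3 on day 8. GFP-negative cells gave 759.7 and 736.5 on day 5, 913 and 800.8 on day 6, 956.2 and 764.8 on day 7, and 734.4 and 760.6 on day 8. The GFP-positive arrays of days 7 and 8 overlapped those of days 5 and 6 through a single pair of values, 828.2 and 724.5. In GFP-positive cells Dnmt1 fell by 0.49 ± 0.15 (limma adjusted p = 0.0345), with -0.72 in batch 1 and -0.26 in batch 2. That call was lost without the batch 1 array of day 5, 7 or 8 or the batch 2 array of day 6 in GFP-positive cells, with differences of -0.37, -0.39, -0.40 and -0.41 and adjusted p between 0.0943 and 0.154. Of its 2 other probe sets, 1435122_x_at fell as well (-0.49, limma adjusted p = 0.0223) and 1447877_x_at did not pass (-0.30, adjusted p = 0.276). Over both fractions Dnmt1 did not pass (-0.25 ± 0.10, adjusted p = 0.0896), except without the batch 2 array of day 5 GFP-positive cells (-0.31, adjusted p = 0.0444) and with equal array medians.

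Both genes of the pair were lower in cardiomyocytes than in day 8 cells. Uhrf1 averaged 130.6 ± 7.4 in cardiomyocytes, against 584.2 ± 100.8 in day 8 GFP-positive cells and 766.0 ± 112.1 in day 8 GFP-negative cells (SD, n = 2 each), so day 8 cells had 4.47 and 5.86 times the cardiomyocyte signal. The log2 differences were -2.10 ± 0.19 against GFP-positive cells (limma adjusted p = 8.68e-06) and -2.49 ± 0.19 against GFP-negative cells (limma adjusted p = 2.69e-06). Dnmt1 averaged 270.0 ± 22.4 in cardiomyocytes, against 574.3 ± 100.4 and 747.5 ± 18.5 in day 8 GFP-positive and GFP-negative cells (SD, n = 2 each). It fell by 1.06 ± 0.21 against GFP-positive cells (limma adjusted p = 0.00176) and by 1.45 ± 0.21 against GFP-negative cells (limma adjusted p = 2.02e-04). Of the 8 genes, 5 were lower in cardiomyocytes than in day 8 GFP-positive cells and 6 lower than in day 8 GFP-negative cells, where 21.8% and 21.4% of all genes tested were lower, and none was higher, where 13.7% and 15.8% were. Both counts include Dnmt3a through 1 of its 5 probe sets, and the average of the 5 did not pass (limma adjusted p = 0.558 and 0.370). The 6 include Mbd3, which did not pass with equal array medians (limma adjusted p = 0.0899). All probe sets of Uhrf1 and Dnmt1, 2 and 3, passed as lower in both comparisons, where 22.1% and 20.8% of all probe sets tested did.

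Genes of DNA replication moved in the same comparisons. In GFP-positive cells 19 of 24 tested replication genes fell between the periods (median -0.67, against 0.09 over all genes), among them Mcm3, a subunit of the replicative helicase (-0.71 ± 0.11, limma adjusted p = 0.00506), and Rrm2, a subunit of the reductase that makes deoxynucleotides (-0.96 ± 0.15, adjusted p = 0.00469). In GFP-negative cells 3 of 24 fell (median -0.26, against -0.01 over all genes). Of all genes tested, 8.03% fell in GFP-positive and 5.25% in GFP-negative cells. Against day 8 GFP-positive cells, 19 of 24 were lower in cardiomyocytes (median -1.16, against -0.16 over all genes), and none of the 24 was higher, where 21.8% and 13.7% of all genes tested were. Across the 16 sorted arrays, the log2 signal of Uhrf1 correlated with the list mean at a Pearson r of 0.868 and a Spearman rho of 0.65, and that of Dnmt1 at 0.698 and 0.509. Without the 2 arrays farthest from the median of the list mean, r was 0.778 for Uhrf1 and 0.458 for Dnmt1. This was not particular to the pair: the 3 values were 0.768, 0.691 and 0.612 for Mbd3 and 0.751, 0.729 and 0.649 for Dnmt3b. With the mean of 13 mitosis genes, r was 0.870 for Uhrf1 and 0.718 for Dnmt1. These points share days, batches and array scaling. How far the share of replicating cells sets the level of the pair was not tested.

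**Figure D2:**
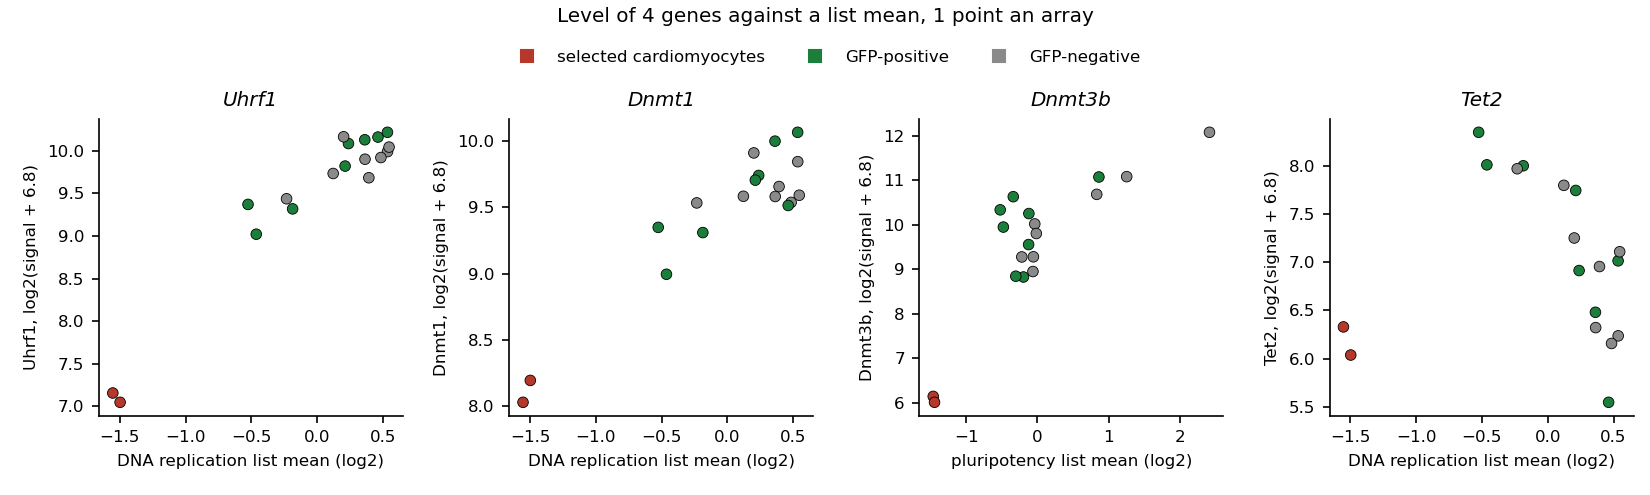
Log2 level of Uhrf1, Dnmt1 and Tet2 against the mean of the DNA replication list, and of Dnmt3b against the mean of the pluripotency list, 1 point an array (18 arrays; selected cardiomyocytes, GFP-positive, GFP-negative). Each list mean is the average deviation of its genes from their own mean over the arrays. Over the 16 sorted arrays, Uhrf1 rises with the replication list (r = 0.868) and Tet2 falls with it (r = -0.813), while the 2 cardiomyocyte arrays combine a low replication list with a low Tet2.

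Dnmt3b, the de novo enzyme, fell most. Its signal was 63.7 and 57.5 in cardiomyocytes. In GFP-positive cells it was 1215.4 and 2154.9 on day 5, 1288.2 and 1583.1 on day 6, 746.5 and 983.1 on day 7, and 447.3 and 453 on day 8. The GFP-negative arrays read 2167.1 and 4335 on day 5, 1032.8 and 1642.3 on day 6, 614.3 and 888.6 on day 7, and 487.9 and 615.7 on day 8. Every array of days 7 and 8 lay below every array of days 5 and 6 in each fraction, and batch 2 gave the higher value in all 8 sorted groups. Dnmt3b fell by 1.28 ± 0.24 in GFP-positive cells (limma adjusted p = 0.00718) and by 1.64 ± 0.24 in GFP-negative cells (limma adjusted p = 0.00456). The differences were -1.11 and -1.46 within batches 1 and 2 in GFP-positive cells and -1.44 and -1.84 in GFP-negative cells. From day 5 to day 8 the mean signal dropped 3.74 times in GFP-positive cells and 5.89 times in GFP-negative cells.

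The 2 probe sets of Dnmt3b both fell between the periods in each fraction and were both lower in cardiomyocytes. The second, 1418351_a_at, read 35.8 and 39.3 in cardiomyocytes, against 186.4 and 253.0 in day 8 GFP-positive cells and 213.9 and 289.0 in day 8 GFP-negative cells. Between the periods its difference was -1.15 ± 0.37 in GFP-positive cells (limma adjusted p = 0.0476) and -1.80 ± 0.37 in GFP-negative cells (limma adjusted p = 0.0126). Its GFP-positive periods overlapped through 459.2 on day 7 of batch 2 and 418.3 on day 6 of batch 1. On day 7 its GFP-negative arrays read 316.9 in batch 1 and 311.5 in batch 2. With the used probe set the log2 difference of cardiomyocytes was -2.76 ± 0.34 against day 8 GFP-positive cells (limma adjusted p = 8.54e-05) and -3.04 ± 0.34 against day 8 GFP-negative cells (limma adjusted p = 4.10e-05). Day 8 cells had 7.43 and 9.11 times the cardiomyocyte signal, and no array of the 2 kinds overlapped.

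Some markers of stem cells fell beside Dnmt3b. Between the periods, 8 of 16 pluripotency genes fell over both fractions, led by Lin28a, an RNA-binding protein of stem cells (-1.63 ± 0.21, limma adjusted p = 5.63e-04), and Sall4, a zinc finger factor (-1.45 ± 0.23, adjusted p = 0.00107). Taken by fraction, 2 rose and 2 fell in GFP-positive cells, while 5 fell and none rose in GFP-negative cells. Of all genes tested, 13.2% fell over both fractions. By fraction, 11.3% of them rose and 8.03% fell in GFP-positive cells, and 7.25% rose and 5.25% fell in GFP-negative cells. The summed signal of the 16 genes on day 5 was 3510 and 9015 in the GFP-positive fraction, against 5802 and 16492 in the GFP-negative fraction, and batch 2 was the higher in both, as it was for Dnmt3b. The day 8 sums were 2486 and 2384 for the GFP-positive fraction, against 1684 and 1449 for the GFP-negative fraction. The list mean had the opposite order on day 8, at -0.25 in GFP-positive and -0.06 in GFP-negative cells. Of the 16 genes, 6 were below 22.5 on both day 8 GFP-positive arrays, Pou5f1 and Nanog among them. On both day 8 GFP-negative arrays 2 were. In cardiomyocytes the summed signal was 731 and 777, with 11 of the 16 genes, Pou5f1, Nanog and Sox2 among them, below 22.5 on both arrays. Over the 16 sorted arrays Dnmt3b correlated with the list mean at a Pearson r of 0.765 and a Spearman rho of 0.497, and without the 2 arrays farthest from the median of the list mean r was 0.478. For the DNA replication list the same 3 values were 0.751, 0.729 and 0.649, so the likeness was not particular to the pluripotency list. What part undifferentiated cells have in the Dnmt3b signal was not tested.

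Dnmt3a gave different answers from its 5 probe sets. The brightest, 1423066_at, which stood for the gene, read 459.6 and 485.2 in cardiomyocytes. In GFP-positive cells it read 680.1 and 624 on day 5, 849.6 and 648.2 on day 6, 780.2 and 649.9 on day 7, and 768 and 1060.2 on day 8. In GFP-negative cells it read 612.8 and 623.2 on day 5, 669.6 and 675.9 on day 6, 778.4 and 448.2 on day 7, and 963.4 and 725 on day 8. The periods overlapped in each fraction, and the difference over both fractions did not pass (0.16 ± 0.12, limma adjusted p = 0.340). With the 5 probe sets averaged it passed as a rise of 0.49 (adjusted p = 0.0240).

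A second Dnmt3a probe set, 1423064_at, fell more steeply in cardiomyocytes. It read 33.6 and 36.8 there, against 187.3 and 176.8 in day 8 GFP-positive cells and 272.0 and 168.4 in day 8 GFP-negative cells. Its log2 difference from day 8 GFP-positive cells was -2.17 ± 0.26 (limma adjusted p = 6.28e-05), while that of 1423066_at was -0.92 ± 0.25 (adjusted p = 0.0108). The other 3 went the other way without passing, with 0.42 for 1423063_at (adjusted p = 0.390), 0.78 for 1423065_at (adjusted p = 0.0827) and 0.68 for 1460324_at (adjusted p = 0.278). Against day 8 GFP-negative cells 1423064_at and 1423066_at were again lower, with differences of -2.40 (adjusted p = 2.93e-05) and -0.81 (adjusted p = 0.0204), and the other 3 did not pass. For 1423063_at the cardiomyocyte arrays read 292.1 and 303.5, above both day 8 GFP-positive arrays (172.2 and 281.3). With the 5 averaged, the gene did not pass against day 8 GFP-positive cells (-0.24, limma adjusted p = 0.558), and the call of the brightest was also lost without the batch 2 array of day 8 GFP-positive cells (-0.69, adjusted p = 0.110) or the first cardiomyocyte array (-0.89, adjusted p = 0.0622). Against day 8 GFP-negative cells the average of the 5 was -0.36 (adjusted p = 0.370), and the call of the brightest was lost without the batch 1 array of those cells (-0.61, adjusted p = 0.129) or without either cardiomyocyte array (-0.78 and -0.85, adjusted p = 0.0932 and 0.0683).

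Between the periods, over both fractions, 1423063_at rose by 0.98 ± 0.18 (limma adjusted p = 0.00216) and 1460324_at by 0.85 ± 0.23 (limma adjusted p = 0.0160), while 1423065_at (0.44 ± 0.16, adjusted p = 0.0623) and 1423064_at (0.04 ± 0.13, adjusted p = 0.848) did not pass, and no Dnmt3a probe set fell. On 1423063_at GFP-positive cells read 69.9 and 73.4 on day 5, 100.4 and 91.4 on day 6, 158.1 and 128.4 on day 7, and 172.2 and 281.3 on day 8, with no overlap between the periods. Which transcript of Dnmt3a each probe set reads was not analysed here, so no single direction can be given for the gene.

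**Figure D3:**
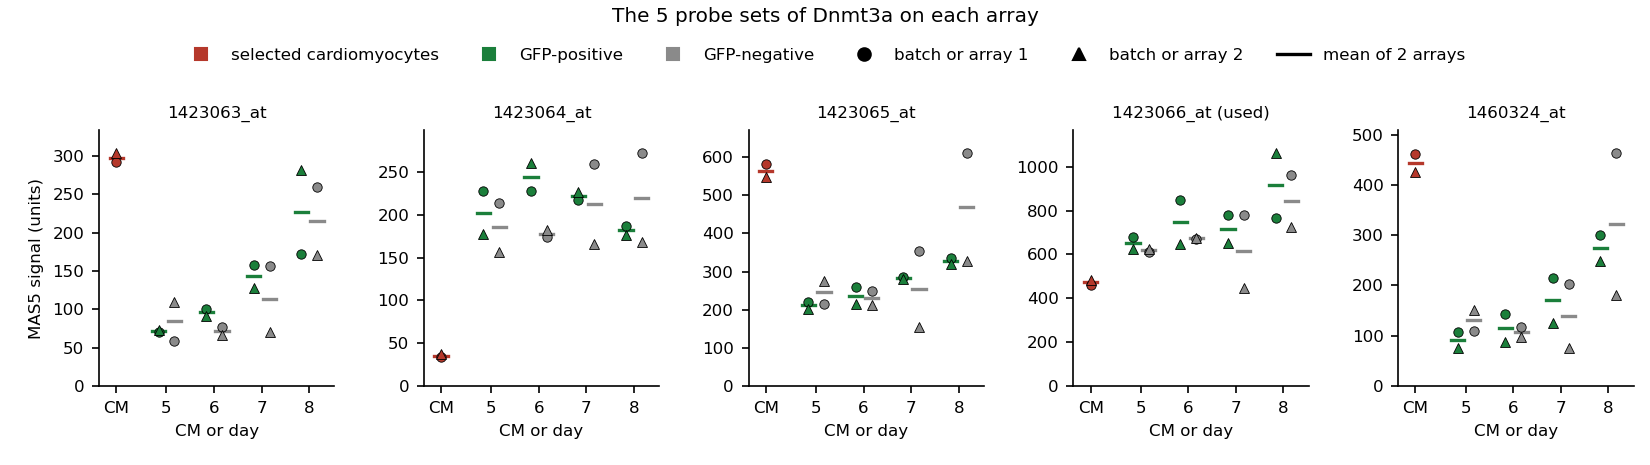
MAS5 signal (vertical axis, linear, from 0) of each Dnmt3a probe set on the 18 arrays, cardiomyocytes at the left and days 5 to 8 after them, GFP-positive beside GFP-negative; bars are means of 2 arrays. In cardiomyocytes 1423064_at is at 33.6 and 36.8, below all sorted arrays, while 1423063_at is at 292.1 and 303.5, above all of them.

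Dnmt3l was barely above the floor. It read 3.2 and 19 in day 5 GFP-positive cells, against 29.8 and 43.5 in day 5 GFP-negative cells. The cardiomyocyte arrays read 16 and 1.2, and every array other than those of day 5 GFP-negative cells and the batch 2 array of day 6 GFP-negative cells (30.1) was below the median of all values. It did not pass in any of the 9 comparisons.

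Tet2 rose and was low again in cardiomyocytes. Its signal was 73.6 and 58.9 in cardiomyocytes. In GFP-positive cells it was 82.5 and 40 on day 5, 113.7 and 122.4 on day 6, 248.8 and 207.3 on day 7, and 250.5 and 318.2 on day 8. In GFP-negative cells it was 73.2 and 64.6 on day 5, 68.6 and 117.2 on day 6, 145.4 and 131.1 on day 7, and 243.4 and 215.3 on day 8. The periods did not overlap in either fraction. Tet2 rose by 1.53 ± 0.21 in GFP-positive cells (limma adjusted p = 0.00396) and by 1.11 ± 0.21 in GFP-negative cells (limma adjusted p = 0.00908), and day 8 means were 4.64 and 3.33 times the day 5 means. Within batches 1 and 2 the differences were 1.31 and 1.76 in GFP-positive cells and 1.33 and 0.90 in GFP-negative cells. On days 7 and 8 GFP-positive cells were higher in 4 of 4 pairs (ratios 1.03 to 1.71), a difference that did not pass (0.49 ± 0.21, limma adjusted p = 0.180).

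Against day 8 cells the cardiomyocyte difference of Tet2 was -1.99 ± 0.30 for GFP-positive (limma adjusted p = 3.32e-04) and -1.70 ± 0.30 for GFP-negative cells (limma adjusted p = 8.98e-04). The other probe set, 1455300_at, read 45.6 and 40.5 in cardiomyocytes, against 73.0 and 75.7 in day 8 GFP-positive cells and 56.7 and 50.6 in day 8 GFP-negative cells. It did not pass in either comparison, at -0.70 ± 0.26 (limma adjusted p = 0.0508) and -0.28 ± 0.26 (adjusted p = 0.441), though it rose between the periods over both fractions (0.62 ± 0.13, adjusted p = 0.00426). With both probe sets averaged, cardiomyocyte Tet2 passed as lower, with differences of -1.35 against day 8 GFP-positive cells (adjusted p = 0.00106) and -0.99 against day 8 GFP-negative cells (adjusted p = 0.00636).

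Tet1, a methylcytosine oxidase of stem cells, ran the other way over the days. Its signal was 161.4 and 138.7 in cardiomyocytes. In GFP-positive cells it was 291.5 and 326.2 on day 5, 262.4 and 309.9 on day 6, 179.8 and 193.9 on day 7, and 218.8 and 221 on day 8. GFP-negative cells gave 305.7 and 460.5 on day 5, 155.8 and 390.1 on day 6, 122.9 and 129.4 on day 7, and 170.7 and 114 on day 8. The GFP-positive periods did not overlap, and the GFP-negative ones overlapped only through the batch 1 arrays of day 6 (155.8) and day 8 (170.7).

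Over both fractions Tet1 fell by 0.85 ± 0.17 (limma adjusted p = 0.00317), with -0.52 in batch 1 and -1.18 in batch 2, and with the mean of the 4 probe sets it was -0.39 (adjusted p = 0.0373). The call stood in GFP-negative cells (-1.16 ± 0.24, limma adjusted p = 0.0113) but not in GFP-positive cells (-0.53 ± 0.24, adjusted p = 0.129), where it passed only without one or the other array of day 6 GFP-negative cells (adjusted p = 0.0409 and 0.0417), which alters the shared variance alone, or with equal array medians. The GFP-negative call was lost without the batch 2 array of day 5 (-1.01, adjusted p = 0.0506) and with the mean of the 4 probe sets (-0.56, adjusted p = 0.0625). The interaction did not pass (0.62 ± 0.34, adjusted p = 0.464), so a difference between the fractions is not shown. On days 7 and 8 GFP-positive cells were higher in 4 of 4 pairs (ratios 1.28 to 1.94), at 0.59 ± 0.24 (limma adjusted p = 0.156).

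Cardiomyocyte Tet1 signals lay below both day 8 GFP-positive arrays and within the range of the day 8 GFP-negative ones, and neither difference passed (-0.54 ± 0.34, limma adjusted p = 0.240, and 0.10, with a mean of 150.1 ± 16.1 against 142.4 ± 40.1 in GFP-negative cells, SD, n = 2 each). Of the other probe sets, 1419896_at also fell between the periods over both fractions (-0.76 ± 0.21, limma adjusted p = 0.0168), 1429448_s_at did not pass (-0.40 ± 0.17, adjusted p = 0.0934), and 1419897_at was dim, between 0.8 and 31.2 on the 18 arrays. Tet1 and Tet2 thus had opposite signs of their differences between the periods, as did Tet2 and Dnmt3b.

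Mbd3, which despite its name recognises methylated DNA poorly in mammals, was nearer to Dnmt1 and Uhrf1 in its course. Its signal was 189.4 and 190 in cardiomyocytes. In GFP-positive cells it was 403.7 and 338.8 on day 5, 419.4 and 456.9 on day 6, 262.9 and 377.3 on day 7, and 242.6 and 273.3 on day 8. The GFP-negative arrays read 351.3 and 310.4 on day 5, 482.1 and 341.1 on day 6, 409.4 and 459.2 on day 7, and 329.3 and 314 on day 8. The GFP-positive periods overlapped through the batch 2 arrays of day 7 (377.3) and day 5 (338.8), and both cardiomyocyte arrays lay below every sorted array.

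Mbd3 fell by 0.49 ± 0.14 in GFP-positive cells (limma adjusted p = 0.0332), with -0.69 in batch 1 and -0.29 in batch 2, against a difference of 0.03 in GFP-negative cells. The call was lost without any of 6 of the 8 GFP-positive arrays, both of day 5, both of day 8, the batch 1 array of day 7 and the batch 2 array of day 6, with differences of -0.43, -0.55, -0.45, -0.53, -0.36 and -0.46 and adjusted p of 0.0578 to 0.154. Over both fractions it did not pass (-0.23 ± 0.10, adjusted p = 0.105), except without the batch 2 array of day 7 GFP-positive cells (-0.29, adjusted p = 0.0425), with quantile normalization (adjusted p = 0.0495) and with equal array medians. In cardiomyocytes Mbd3 was lower than in day 8 GFP-negative cells (-0.74 ± 0.20, limma adjusted p = 0.0122). Without either cardiomyocyte array the adjusted p of that difference was 0.0597 or 0.0588, and with equal array medians it was 0.0899. Against day 8 GFP-positive cells it did not pass (-0.43 ± 0.20, adjusted p = 0.121), except with array weights (adjusted p = 0.0306).

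**Figure D4:**
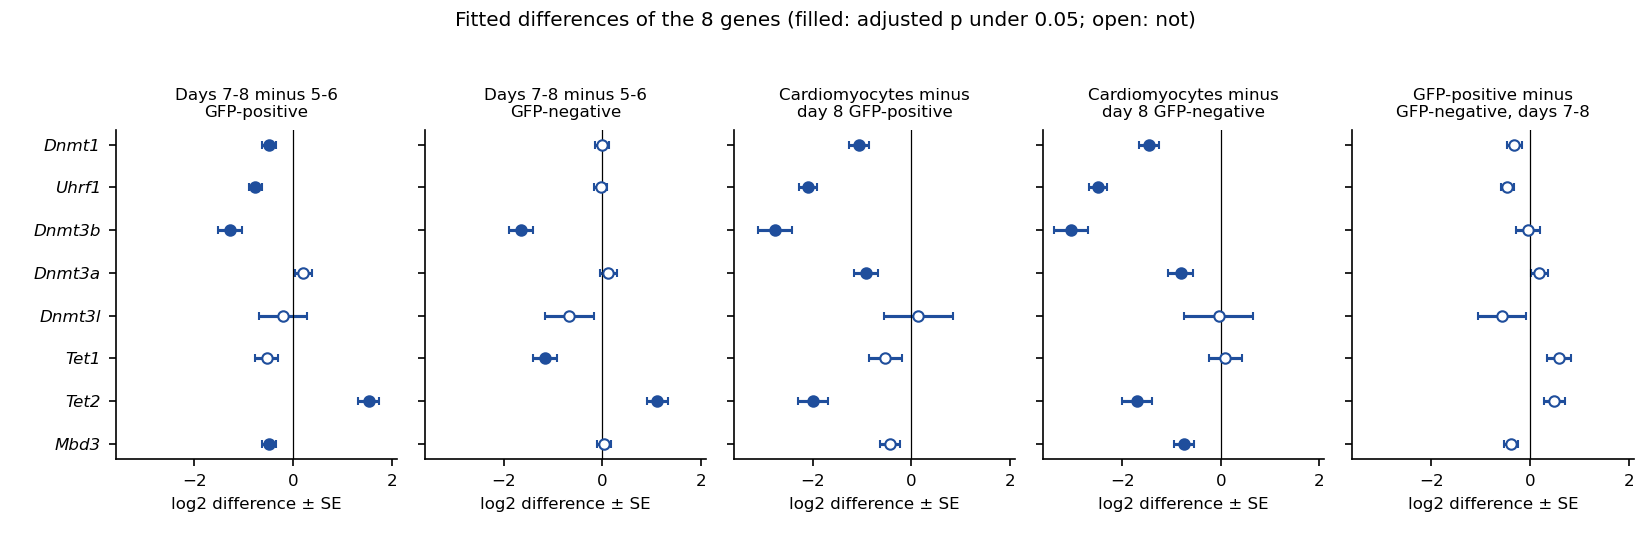
Log2 differences with standard errors of the 8 genes in 5 comparisons, from the limma fit across 13379 genes; filled points have an adjusted p under 0.05. Dnmt3b lies left of 0 in the first 4 panels, Tet2 lies right of 0 between the periods and left of 0 for cardiomyocytes, and no point is filled in the panel of GFP-positive minus GFP-negative cells.

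Over both fractions 1 of the 8 genes rose, Tet2 (1.32 ± 0.15, limma adjusted p = 3.71e-04), and 3 fell, Dnmt3b (-1.46 ± 0.17, adjusted p = 3.90e-04), Tet1 and Uhrf1 (-0.40 ± 0.09, adjusted p = 0.00752; -0.54 in batch 1 and -0.25 in batch 2). Among all genes tested 17.1% rose and 13.2% fell in that comparison. In GFP-positive cells 1 rose and 4 fell, where 11.3% and 8.03% of all genes did. In GFP-negative cells 1 rose and 2 fell, where 7.25% and 5.25% did. The median of the 8 genes was -0.32 over both fractions, -0.49 in GFP-positive cells and -0.01 in GFP-negative cells, against 0.05, 0.09 and -0.01 over all genes.

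The result depends on the scaling of the arrays. With equal array medians the median of all genes moved to -0.22 over both fractions, -0.31 in GFP-positive and -0.13 in GFP-negative cells, and the calls in GFP-positive cells became 772 higher and 3597 lower in place of 1516 and 1074. The fall of Dnmt3b in GFP-positive cells was then -1.68 and the rise of Tet2 1.13, both larger than the moved median. Uhrf1 and Dnmt1 stood at -1.17 and -0.89 in GFP-positive cells and Mbd3 at -0.89. Uhrf1 stood at -0.66 over both fractions, and Dnmt1 and Mbd3 also passed over both fractions (-0.51, adjusted p = 0.00647, and -0.49, adjusted p = 0.0102). Tet1 then passed in GFP-positive cells too (-0.93, adjusted p = 0.0136). For cardiomyocytes against day 8 GFP-positive cells the median of all genes was 0.18 in place of -0.16, with 2765 genes higher and 1461 lower in place of 1835 and 2922. The differences of Uhrf1, Dnmt3b and Tet2 were then -1.76, -2.43 and -1.66. Those of Dnmt1 and Dnmt3a were -0.73 and -0.59 (limma adjusted p = 0.0386 and 0.0309).

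Of all genes tested, 17.1% rose and 13.2% fell over both fractions between the periods. Among 15 further genes of DNA methylation and demethylation that were tested, 2 rose and 5 fell in that comparison (median -0.09). Those that fell included Hells, a remodelling helicase needed for methylation (-0.71 ± 0.10, limma adjusted p = 7.49e-04), its partner Cdca7, Apex1, the base excision repair endonuclease (-0.59 ± 0.08, adjusted p = 7.04e-04), and Usp7, a deubiquitinase that stabilises Dnmt1 and Uhrf1 (-0.45 ± 0.07, adjusted p = 8.32e-04). Gadd45a and Gadd45b, stress-induced factors linked to demethylation, were the 2 that rose. In cardiomyocytes against day 8 GFP-positive cells 7 of the 15 were lower and 1 was higher (median -0.73), led by Mbd4, a glycosylase that repairs deaminated methylcytosine (-2.38 ± 0.27, adjusted p = 4.22e-05), Cdca7 (-2.09 ± 0.24, adjusted p = 5.68e-05) and Hells (-1.62 ± 0.20, adjusted p = 9.34e-05). Of all genes tested, 21.8% were lower and 13.7% higher there.

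Of 8 methyl-CpG and CpG reader genes tested, 5 rose and 1 fell over both fractions (median 0.36), where 17.1% and 13.2% of all genes tested did. Zbtb4, a zinc finger protein that binds methylated DNA, rose by 1.00 ± 0.19 (limma adjusted p = 0.00239) and Mbd2, a methyl-CpG binding partner of NuRD, by 0.97 ± 0.23 (limma adjusted p = 0.00748). Kdm2b, a demethylase that binds unmethylated CpG, fell by 0.59 ± 0.09 (limma adjusted p = 9.43e-04).

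Of 11 genes of NuRD, the complex that holds Mbd3, 1 rose and 3 fell over both fractions between the periods (median -0.21, against 0.05 over all genes), where 17.1% and 13.2% of all genes did, the 3 being Hdac1, a histone deacetylase (-0.43 ± 0.09, limma adjusted p = 0.00531), Mta1 (-0.38 ± 0.10, adjusted p = 0.0114) and Rbbp4, a histone chaperone (-0.35 ± 0.10, adjusted p = 0.0215). In cardiomyocytes 6 of the 11 were lower than in day 8 GFP-positive cells and none was higher (median -0.50, against -0.16 over all genes), where 21.8% and 13.7% of all genes were. Of 10 genes of the methyl donor and folate cycle, which supplies S-adenosylmethionine, 6 fell and 1 rose between the periods (median -0.50), led by Shmt1, a serine hydroxymethyltransferase (-0.88 ± 0.11, limma adjusted p = 5.67e-04), and Mthfd1 (-0.88 ± 0.15, adjusted p = 0.00159). In cardiomyocytes against day 8 GFP-positive cells 2 of these 10 were lower and 1 was higher (median 0.00), where 21.8% and 13.7% of all genes were.

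Marker lists of other cell types moved with the cardiomyocyte comparisons. In cardiomyocytes 13 of 14 endothelial, 11 of 12 endoderm and 6 of 7 blood genes were lower than in day 8 GFP-positive cells. Of 10 fibroblast and feeder genes 6 were higher, among them Dcn and Col1a1, and 1 was lower. Among all genes tested 21.8% were lower and 13.7% higher in that comparison. The summed signal of the endothelial list was 613 and 595 in cardiomyocytes, with Pecam1, Tie1, Erg, Sox18 and Plvap below 22.5 on both arrays, and that of the endoderm list was 473 and 377. For the fibroblast list it was 31896 and 33212 in cardiomyocytes, against 6795 and 7000 in day 8 GFP-positive cells and 24045 and 9842 in day 8 GFP-negative cells. For the blood list it was 462 and 536 in cardiomyocytes, against 18963 and 17525 in day 8 GFP-positive cells. The part of these cell types in the differences of Uhrf1, Dnmt1, Dnmt3b and Tet2 was not tested, and day, clone and batch of the cardiomyocytes cannot be told apart from their cell type.

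Likeness between patterns was described by Pearson r of log2 signals. Over the 16 sorted arrays, which share days and batches, Uhrf1 and Dnmt1 had an r of 0.843, Dnmt1 and Mbd3 0.860, Dnmt3b and Tet1 0.758, and Dnmt3b and Tet2 -0.828. The gene most like Dnmt3b over the 18 arrays was Sclt1 (r = 0.988, 0.969 without cardiomyocytes), followed by Hells (0.988 and 0.968). The most like was Dbf4 for Uhrf1 (0.982), Haus5 for Dnmt1 (0.969, with Uhrf1 next at 0.965), Abcc5 for Tet2 (0.939), Mogat2 for Tet1 (0.940) and Ercc8 for Mbd3 (0.952). These are the highest of 13379 genes, so a high value is partly a matter of choice.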

How the data were processed

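RNA from sorted and selected cells was amplified in 2 rounds with a T7 oligo dT primer, per the labels' protocols, and hybridised to Affymetrix mouse arrays. The values deposited by the authors are intensity values, linear MAS5 signals from GCOS 1.4, per the submitters' processing notes. Trimmed means, leaving out 2% at each end, were 150.0008 to 150.0012. Amplification from oligo dT favours 3′ ends: the ratio of Gapdh 3′ to 5′ control probe sets was 1.13 to 1.64.

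The members and gene lists were chosen with earlier results of these data known. Of 45101 probe sets, 64 controls, 9160 without a gene symbol and 932 with several were left out. The probe set with the highest mean stood for each gene, but those with names ending in _x_at only where the gene had no other. Dnmt1 was thus read by 1422946_a_at (mean 734.9) and not by 1435122_x_at (mean 741.5). Symbols came from GEO's platform annotation, checked against RefSeq, which changed 0. Signals were used as log2(signal + 6.8), the offset being the 25th percentile, so differences of dim genes are understated. Across 13379 genes, limma 3.58.1 (R 4.3.3) fitted a mean for each group, with a variance trend and 9 residual degrees of freedom. In each comparison p-values were adjusted by Benjamini-Hochberg over all genes, and an adjusted p under 0.05 passed. A second fit covered 24382 single probe sets. The script was tested on simulated data.

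Batch numbers were taken to pair samples because the labels name them as batches. Of 28 correlations of batch differences between groups, from -0.183 to 0.653, 13 were over 0.1. Genes were named by rule: the 8 members, up to 3 genes a list with the lowest p, and the genes most like each member. Cdca7, Gadd45a, Gadd45b, Dcn, Col1a1 and the genes with a motif or below 22.5 were named from their counts or values. Of the listed genes, 11 had no probe set of their own and 3 did not pass the filter, and these were not tested. Alternatives covered the offset, scaling, filter, probe sets, variance trend, array weights, batch block, the sorted arrays alone and each array left out. Figures used Python 3.11.15 and matplotlib 3.10.9.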

Additional observations from a re-analysis of the deposited data

Results flagged for a closer look

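Uhrf1 had opposite orders of the fractions in the 2 periods on 1415810_at, the probe set that stood for the gene. GFP-positive cells were higher than GFP-negative cells in 4 of 4 pairs on days 5 and 6 and lower in 4 of 4 pairs on days 7 and 8. The interaction, the change of the GFP-positive minus GFP-negative difference from the early to the late days, was -0.74 ± 0.19 on the log2 scale (limma adjusted p = 0.114), with -0.79 in batch 1 and -0.68 in batch 2, so it did not pass over all genes. The differences were 0.27 on days 5 and 6 (limma adjusted p = 0.777) and -0.46 on days 7 and 8 (limma adjusted p = 0.0548). On the other probe set, 1415811_at, the batch 1 pair of day 8 read 129.8 in GFP-positive and 126.2 in GFP-negative cells. Its interaction was -0.68 ± 0.26 (limma adjusted p = 0.335). The sign was not particular to Uhrf1. The interaction was above 0 for 0 of 24 DNA replication and 0 of 13 mitosis genes (medians -0.37 and -0.41, against 0.04 over all genes), and none passed. For Dnmt1 it was -0.49 (limma adjusted p = 0.344), with -0.71 and -0.84 on its other probe sets (adjusted p = 0.136 and 0.207). For 5 of the 8 genes it was positive. How many of all genes had such an order in their pairs was not counted.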

How the results depend on the processing

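Of 23 differences of the 8 genes that passed, 237 of 242 values under other settings kept their direction and their side of the threshold and 5 lost the call (Dnmt1 in GFP-positive cells between the periods with no variance trend, adjusted p = 0.0533, and those of Tet1, Dnmt3a and Mbd3 given above). Of 49 that did not pass, 502 of 525 values stayed so, 9 came to pass and 14 changed sign. Leaving out 1 array at a time lost 18 of 414 values of calls and changed the sign of none of them. The 414 values take in all 18 arrays for each of the 23 calls. An array outside the groups compared cannot change the difference or its sign, only the shared variance. Every lost call came from leaving out an array of the groups compared, so the share lost among those arrays is larger. The cause of these changes was not tested.

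With batch as a replicate block, which pairs samples by batch, the calls over all genes were 724, 35 and 1427 for GFP-positive minus GFP-negative over all days, days 5 and 6 and days 7 and 8, against 358, 20 and 887 without it. They were 142 for the interaction against 19, and among the 8 genes the block changed only the call of Uhrf1 on days 7 and 8 (adjusted p = 0.0372). Without the cardiomyocyte arrays they were 13 on days 5 and 6, 553 on days 7 and 8 and 0 for the interaction. On days 5 and 6 an offset of 1 gave 13 and array weights gave 4. The interaction had 0 calls by limma with an offset of 1, no filter, no variance trend, array weights or without the cardiomyocyte arrays, where 1639, 2036, 1703, 1587 and 1558 genes had an unadjusted p under 0.05, and 62 with an offset at the median, 69 with quantile normalization, 33 with equal array medians and 53 with the mean of all probe sets. With each probe set tested, calls were 6691 over both fractions and 4247 in GFP-positive cells between the periods, and 8383 and 8507 for cardiomyocytes against day 8 GFP-positive and GFP-negative cells, over more features; equal array medians gave 4369 in GFP-positive cells.

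Without 1 array, calls ranged from 129 to 586, 1 to 79 and 145 to 1383 in the 3 fraction comparisons, 3017 to 4535 over both fractions, 468 to 3126 in GFP-positive and 315 to 1960 in GFP-negative cells between the periods, 0 to 157 for the interaction, and 2886 to 4914 and 3074 to 5111 for cardiomyocytes against day 8 GFP-positive and GFP-negative cells.

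Signs changed as follows. With equal array medians Tet1 on days 5 and 6 was 0.057, Dnmt3a between the periods -0.10 over both fractions, -0.20 in GFP-positive and -0.0015 in GFP-negative cells and -0.20 in the interaction, Mbd3 in GFP-negative cells -0.10, and Dnmt3l in cardiomyocytes against day 8 GFP-negative cells 0.077. Dnmt3l there was 0.0045 with an offset at the median and 0.041 with quantile normalization. With quantile normalization Dnmt3b on days 7 and 8 was 0.0012 and Dnmt1 in GFP-negative cells 0.0076. With the mean of probe sets Dnmt1 in GFP-negative cells was 0.25, Tet1 over all days -0.00020 and Tet1 in cardiomyocytes against day 8 GFP-negative cells -0.011. Without 1 array, ranges that crossed 0 were, for GFP-positive minus GFP-negative, Tet1 -0.36 to 0.28 and Tet2 -0.16 to 0.30 on days 5 and 6, and Dnmt3a -0.0087 to 0.38 and Dnmt3b -0.17 to 0.10 on days 7 and 8. Between the periods they were Dnmt3l -0.54 to 0.14 in GFP-positive cells, and Dnmt1 -0.080 to 0.079, Dnmt3a -0.074 to 0.32, Uhrf1 -0.11 to 0.047 and Mbd3 -0.094 to 0.15 in GFP-negative cells. In the interaction they were Dnmt3a -0.12 to 0.28 and Dnmt3l -0.012 to 0.94. In cardiomyocytes they were Dnmt3l -0.62 to 0.89 against GFP-positive and -0.80 to 0.71 against GFP-negative cells, and Tet1 -0.18 to 0.37 against GFP-negative cells.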
